A study of Mus musculus with 21 samples.

Results

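The genes described here encode 10 core proteins of the nucleolus and of its small nucleolar ribonucleoproteins (snoRNPs): Ncl, Npm1, Nolc1, Fbl, Nop56, Nop58, Dkc1, Nhp2, Nop10 and Gar1. They were taken by symbol from a table of 20900 genes, all 10 were present, and all 10 passed the filter on low values that left 14666 genes for testing. The study treated E14 mouse embryonic stem cells with an inhibitor of RNA polymerase I, the enzyme that transcribes the ribosomal RNA precursor, and sequenced poly(A) RNA. E14 is 1 line, of the 129 strain, and all 7 groups were grown in serum medium with LIF, the cytokine that keeps such cells undifferentiated. There were 3 libraries in each group: untreated cells at 0 h (the control), cells after 2, 4 or 8 h in 1 µM BMH-21, and cells after 2, 4 or 8 h in 1 µM CX-5461. The labels name no vehicle for the control and no untreated cells at the later times, so treatment and hours after the change of medium cannot be told apart. They do not say whether the replicates were separate cultures, and if they were not, the p-values measure technical spread.

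Small nucleolar RNAs guide chemical modification of ribosomal RNA, and they work only as RNA-protein particles. Box C/D particles hold Fbl (fibrillarin, the methyltransferase), Nop56 and Nop58 (the paired scaffold proteins) and Snu13, and they place 2′-O-methyl groups. Box H/ACA particles hold Dkc1 (dyskerin, the pseudouridine synthase), Nhp2, Nop10 and Gar1, and they convert uridine to pseudouridine. The same H/ACA proteins also bind telomerase RNA. Ncl (nucleolin) binds nascent ribosomal RNA precursor, Npm1 (nucleophosmin) is the abundant chaperone of the outer nucleolar layer, and Nolc1 (Nopp140) is a chaperone that carries snoRNPs between Cajal bodies and nucleoli.

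Each library held 46604397 to 62812641 reads in the table, and the genes had from 3405 reads (the lowest library of Gar1) to 376170 (the highest of Npm1), so counting error was small beside the spread of replicates. The deposited values are log2 expression, scaled per library with factors from 0.832 to 1.375. Median-ratio factors were computed here as the median, over genes, of each gene's reads relative to its geometric mean over libraries. Taken relative to total reads, they run from 0.941 to 1.107. Each result is first given on the deposited scale, and where its direction or call differs it is given again after centring each library on its median and with the median-ratio factors. On the deposited scale the median of all genes tested stood at -0.40 (log2) at 8 h of BMH-21 and at 0.11 at 8 h of CX-5461, both against control. The 8 embryonic stem cell markers had a summed level of 5765 to 6583 (linear deposited scale) in the control, 2840 to 3014 at 8 h of BMH-21 and 5322 to 5707 at 8 h of CX-5461. At this last point they did not all go the same way. Tdgf1 had a mean log2 of 10.25 (control 9.88) and Esrrb one of 7.94 (control 8.69). Of 6 fibroblast markers, 3 (Col1a1, Col1a2 and Thy1) were above the filter and Col3a1, Postn and Lum below it, with a summed level of 30.2 to 34.6 in the control, 38.7 to 46.5 at 8 h of BMH-21 and 42.9 to 44.2 at 8 h of CX-5461. These 3 did not move together: at 8 h of BMH-21 Col1a1 rose by 1.86 (log2, adjusted p 5.75e-30), Thy1 fell by 1.41 (adjusted p 1.79e-22) and Col1a2 was not called (0.07, adjusted p 0.775). The 4 neural markers summed to 217 to 239 in the control, 106 to 121 at 8 h of BMH-21 and 271 to 283 at 8 h of CX-5461. Tubb3 and Nes make up most of this sum, and its members differed. At 8 h of BMH-21 Pax6 (-3.05) and Tubb3 (-1.33) fell, while Sox1 (0.06, adjusted p 0.784) and Nes (-0.12, adjusted p 0.336) were not called. At 8 h of CX-5461 the mean log2 of Pax6 was 2.80 (control 3.26), while Nes stood at 6.22 (control 5.51). Of 5 endoderm markers 4 were above the filter and Foxa2 below it. All 5 summed to 8.77 to 10.96 in the control, 7.66 to 9.30 at 8 h of BMH-21 and 12.1 to 12.4 at 8 h of CX-5461. The 4 above the filter were mixed as well. At 8 h of BMH-21 Gata6 rose by 0.65 (adjusted p 0.000207), while Sox7 fell by 0.89 (adjusted p 2.86e-06) and Gata4 by 0.70 (adjusted p 0.000102). Sox17 was not called there (0.27, adjusted p 0.303). The part of these marker levels in the results was not tested.

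The level of each gene in the control, as RPKM (reads per kilobase, set relative to the library's total) over the coding sequence, ran from 7476 ± 345 (SD, n = 3) for Npm1 to 129 ± 34.0 for Gar1. Ncl followed Npm1 at 1690 ± 149, then Nhp2 at 1029 ± 22.4, Nop10 at 523 ± 17.7 and Fbl at 376 ± 39.5. Nop56 (293 ± 8.02), Nop58 (283 ± 9.98) and Nolc1 (273 ± 9.23) followed in this order; each overlapped the next over its 3 libraries, while Nop56 and Nolc1 did not overlap, and Dkc1 lay below them at 220 ± 7.17. The order depends on the length used, since reads also fall on untranslated exons. Per kilobase of all annotated exons, Nhp2 (412 ± 8.99) stood above Ncl (352 ± 31.1), and Nop58, whose annotated exons are long, was lowest at 42.3 ± 1.49.

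On the deposited scale and with all libraries, at most 1 of the 10 genes was called at 2 h with either inhibitor. At 4 h most were called lower on that scale. At 8 h all 10 were lower with BMH-21 than with CX-5461 as deposited, where 67.2% of all genes were. After centring and with median-ratio factors 7 of 10 were lower in both cases, where 40.6% and 36.4% of all genes were. At 2 h of BMH-21, 0 of 10 passed the test (limma, adjusted p under 0.05), against 19.7% of all genes tested in either direction. At 4 h 7 of 10 fell, where 44.9% of all genes fell, and at 8 h 10 of 10 fell, where 56.9% of all genes fell. With CX-5461, 1 of 10 fell at 2 h (20.5% of all genes), 8 of 10 at 4 h (51.2%) and 7 of 10 at 8 h (14.3%). The median log2 change of the 10 genes at 2, 4 and 8 h was -0.0009, -0.30 and -1.16 with BMH-21, beside -0.07, -0.21 and -0.40 over all genes tested. With CX-5461 it was -0.16, -0.40 and -0.41, beside -0.18, -0.28 and 0.11. After centring and with median-ratio factors, 5 and 4 of the genes fell at 4 h of BMH-21 (41.5% and 38.8% of all genes) and 10 and 9 at 8 h (51.3% and 43.3%), so that under these scalings the share at 4 h of BMH-21 was near that of all genes. With CX-5461 7 and 5 fell at 4 h (45.7% and 36.5%) and 9 and 9 at 8 h (44.7% and 35.3%). At 8 h of BMH-21 all libraries lay below all controls for 10 of 10 genes, as they did for 57.1% of all genes. After quantile normalization, which gives every library the same set of values, Npm1 (-0.07), Nhp2 (-0.05) and Gar1 (-0.29) were not called at 8 h of BMH-21 and Fbl turned to 0.29 and was called higher. The count at 2 h of CX-5461 rested on single libraries: it was 0 without control replicate 2 or without CX-5461 replicate 2, 3 without control replicate 3 and 5 without CX-5461 replicate 1. The count over all genes moved too: leaving out 1 replicate gave 2370 to 5592 called in either direction, beside 4096 with all libraries. In these bulk libraries, fewer cells with a transcript and less of it per cell cannot be told apart.

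The share of all reads that falls on the 10 genes does not depend on the scaling. It was 1.304 ± 0.01% in the control (SD, n = 3), 1.35 ± 0.02% at 2 h, 1.23 ± 0.04% at 4 h and 0.854 ± 0.04% at 8 h of BMH-21. With CX-5461 it was 1.31 ± 0.05%, 1.22 ± 0.02% and 1.01 ± 0.03%. At 8 h the highest BMH-21 library (0.901%) lay below the lowest CX-5461 library (0.975%), and all 6 libraries lay below the lowest control (1.29%). Npm1 and Ncl, the most abundant of the genes, weigh most in this share.

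**Figure D1:**
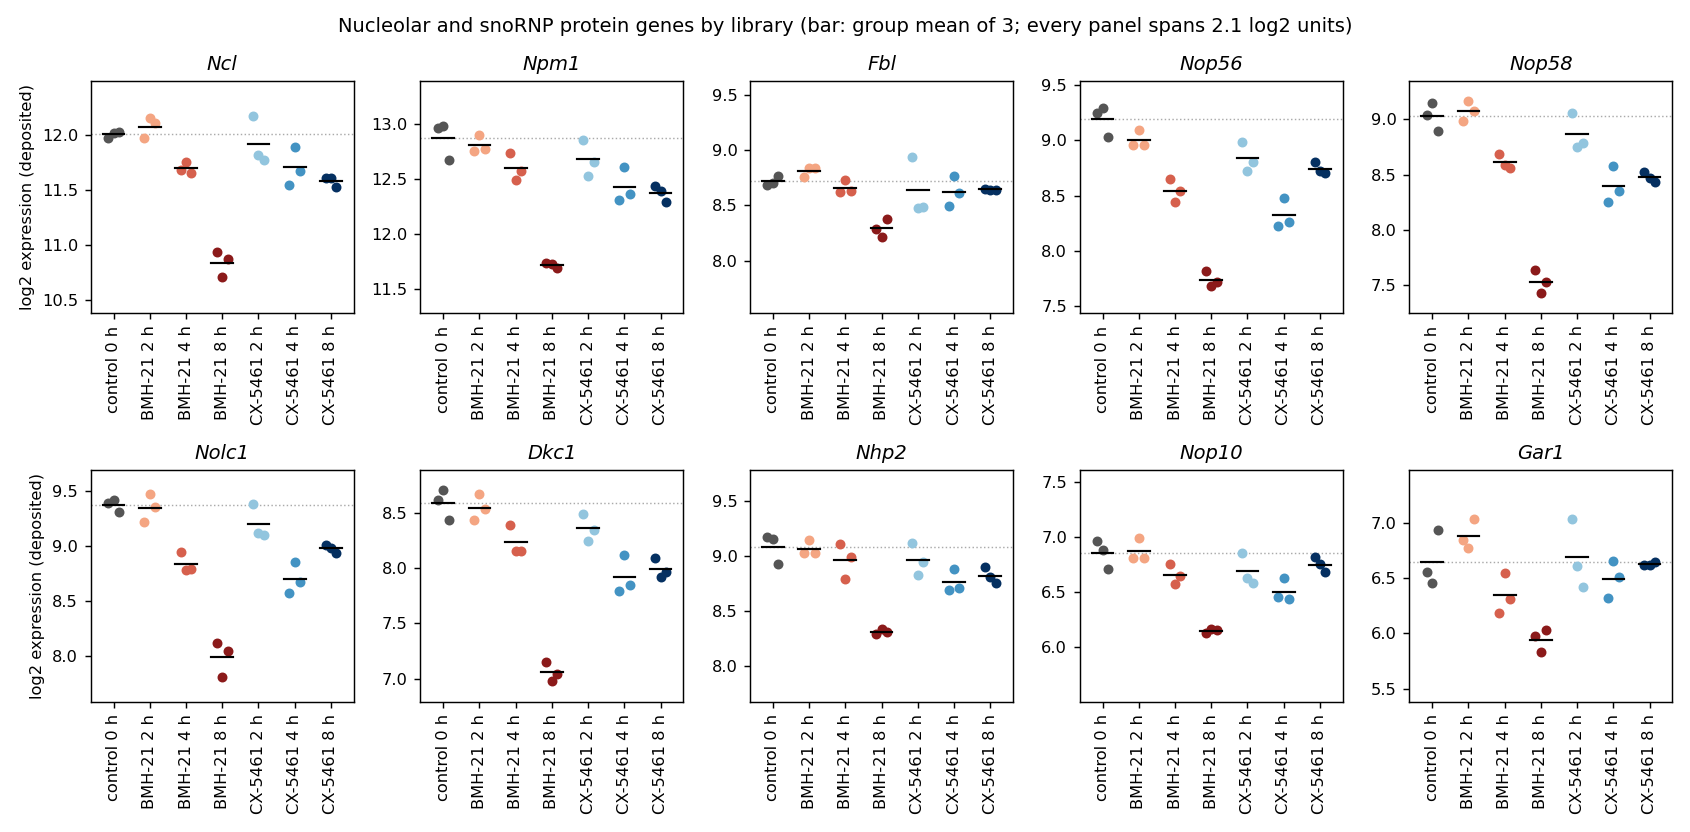
Deposited log2 expression (vertical axes) of the 10 genes in each library, with groups along the horizontal axes from the control through 3 times of BMH-21 and 3 of CX-5461; points are libraries and bars are means of 3. The 3 libraries at 8 h of BMH-21 are the lowest group in every panel, and Fbl shows the smallest drop.

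Ncl, the nucleolin gene (ENSMUSG00000026234, chr1:86344719-86359400, minus strand of GRCm38, 14 exons in its longest transcript), was not called at 2 h and was below its control level from 4 h. Its log2 values were 11.97, 12.01 and 12.02 in the control, then 11.97, 12.15 and 12.10 at 2 h, 11.68, 11.76 and 11.66 at 4 h and 10.93, 10.71 and 10.87 at 8 h of BMH-21. With CX-5461 they were 12.17, 11.82 and 11.77 at 2 h, 11.55, 11.89 and 11.67 at 4 h and 11.61, 11.61 and 11.52 at 8 h. All libraries at 4 and 8 h lay below all controls with either inhibitor. At 8 h Ncl fell to 44.6% of control with BMH-21 (log2 -1.17, SE 0.10, adjusted p 6.32e-22) and to 74.5% with CX-5461 (-0.42, SE 0.10, adjusted p 9.23e-05). The calls at 4 h (-0.30 with each inhibitor, adjusted p 0.00377 and 0.00426) were lost with median-ratio factors (-0.12 and -0.05), and the CX-5461 call also after centring (-0.14) and without CX-5461 replicate 1 (-0.22).

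Npm1 (ENSMUSG00000057113, chr11:33152287-33163206, minus strand, 11 exons) had the most reads of the 10 genes and followed a course close to that of Ncl. Its values were 12.96, 12.98 and 12.67 in the control, 12.75, 12.90 and 12.77 at 2 h, 12.74, 12.49 and 12.58 at 4 h and 11.74, 11.73 and 11.69 at 8 h of BMH-21. With CX-5461 they were 12.85, 12.52 and 12.66, then 12.31, 12.61 and 12.36, and at 8 h 12.44, 12.39 and 12.29. The 3 libraries at 8 h of BMH-21 lay far below all others, while those at 4 h of BMH-21 overlapped the control. At 8 h Npm1 fell to 45.0% of control with BMH-21 (-1.15, SE 0.10, adjusted p 5.52e-22) and to 70.7% with CX-5461 (-0.50, SE 0.10, adjusted p 3.32e-06). Its call at 4 h of BMH-21 (-0.27, adjusted p 0.00819) was lost after centring (-0.13), with median-ratio factors (-0.09) and without control replicate 1, control replicate 2 or BMH-21 replicate 2 (-0.22 to -0.23). With no filter on low values, that call and both Ncl calls at 4 h were lost as well. The annotation holds 3 near copies of the Npm1 transcript (at least 90% identity over at least 50% of its length), all annotated as pseudogenes, and the authors' counting could have split reads among them.

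Nolc1, the snoRNP chaperone (ENSMUSG00000015176, chr19:46075863-46085530, plus strand, 13 exons), had larger falls than Ncl or Npm1 at 4 h of both inhibitors and at 8 h of BMH-21. Its values were 9.39, 9.41 and 9.30 in the control, 9.22, 9.47 and 9.35 at 2 h, 8.95, 8.78 and 8.79 at 4 h and 8.12, 7.81 and 8.05 at 8 h of BMH-21. With CX-5461 they were 9.38, 9.12 and 9.09, then 8.57, 8.86 and 8.67, and at 8 h 9.01, 8.98 and 8.94. At 4 h its libraries already lay below every control with both inhibitors. Nolc1 stood at 69.3% of control at 4 h (-0.53, SE 0.10, adjusted p 2.44e-06) and 38.5% at 8 h of BMH-21 (-1.38, adjusted p 2.88e-25). With CX-5461 it stood at 63.0% at 4 h (-0.67, adjusted p 6.93e-09) and 76.2% at 8 h (-0.39, adjusted p 0.000646). The difference between Nolc1 and Ncl or Npm1 was not itself tested.

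The box C/D proteins split at 8 h of BMH-21: the 2 scaffold genes fell by like amounts there, and fibrillarin fell least of the 10 genes. Nop56 (ENSMUSG00000027405, chr2:130274430-130279313, plus strand, 12 exons) had log2 values of 9.25, 9.30 and 9.03 in the control, 8.95, 9.10 and 8.96 at 2 h, 8.65, 8.44 and 8.54 at 4 h and 7.82, 7.68 and 7.72 at 8 h of BMH-21. With CX-5461 it had 8.99, 8.73 and 8.81, then 8.22, 8.48 and 8.26, and at 8 h 8.80, 8.72 and 8.70. Nop56 was the gene of the 10 called at 2 h of CX-5461, at 78.4% of control (-0.35, SE 0.10, adjusted p 0.00534), with all 3 libraries below the control; the call was lost without control replicate 2 or CX-5461 replicate 2 (-0.30 each). At 4 h it stood at 63.8% of control with BMH-21 (-0.65, adjusted p 1.21e-08) and 54.6% with CX-5461 (-0.87, adjusted p 2.42e-13). At 8 h it stood at 36.5% with BMH-21 (-1.45, adjusted p 3.80e-27) and 73.2% with CX-5461 (-0.45, adjusted p 8.19e-05). Its exons overlap those of Idh3b on the opposite strand, and whether the counting used strand is not stated.

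Nop58 (ENSMUSG00000026020, chr1:59684971-59719044, plus strand, 15 exons) was not called at 2 h as deposited. Its values were 9.04, 9.15 and 8.89 in the control, 8.99, 9.16 and 9.08 at 2 h, 8.69, 8.59 and 8.56 at 4 h and 7.64, 7.43 and 7.53 at 8 h of BMH-21. With CX-5461 they were 9.06, 8.75 and 8.79, then 8.26, 8.58 and 8.35, and at 8 h 8.52, 8.47 and 8.43. From 4 h on every library with either inhibitor lay below the controls. Nop58 fell to 75.0% at 4 h (-0.42, SE 0.10, adjusted p 0.000197) and to 35.4% at 8 h of BMH-21 (-1.50, adjusted p 8.29e-28). With CX-5461 it fell to 64.5% (-0.63, adjusted p 3.89e-08) and 68.1% (-0.55, adjusted p 1.67e-06). At 2 h of BMH-21, where its deposited difference was 0.05 (adjusted p 0.812), it was called higher after centring (0.12, adjusted p 0.0283) and with median-ratio factors (0.13, adjusted p 0.0171).

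Fbl (ENSMUSG00000046865, chr7:28169710-28179269, plus strand, 9 exons) was not called as deposited before 8 h. Its values were 8.69, 8.70 and 8.77 in the control, 8.75, 8.84 and 8.84 at 2 h, 8.62, 8.73 and 8.64 at 4 h and 8.29, 8.21 and 8.38 at 8 h of BMH-21. With CX-5461 they were 8.94, 8.48 and 8.49, then 8.49, 8.77 and 8.62, and at 8 h 8.65, 8.64 and 8.64. All 3 libraries at 8 h of BMH-21 lay below all others. Fbl stood at 74.4% of control there (-0.43, SE 0.10, adjusted p 9.35e-05), but the value depends on the scaling: it was -0.21 after centring, -0.07 with median-ratio factors (adjusted p 0.396) and 0.29 after quantile normalization, where it was called higher (adjusted p 0.000844). After quantile normalization it was also called higher at 4 h of BMH-21 (0.22, adjusted p 0.00812) and of CX-5461 (0.33, adjusted p 0.00033). At 8 h of CX-5461 it was not called as deposited (-0.08, adjusted p 0.566) and was called lower after centring (-0.29) and with median-ratio factors (-0.19). Of 3 near copies of the Fbl transcript, 2 are annotated pseudogenes and 1 lies in Tulp4, and the counting could have split reads among them.

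The box H/ACA proteins showed the same kind of split at 8 h, with dyskerin apart from its 3 small partners. Dkc1 (ENSMUSG00000031403, chrX:75095854-75109777, plus strand, 15 exons) had values of 8.62, 8.71 and 8.44 in the control, 8.44, 8.67 and 8.53 at 2 h, 8.39, 8.15 and 8.16 at 4 h and 7.15, 6.97 and 7.04 at 8 h of BMH-21. With CX-5461 it had 8.49, 8.25 and 8.35, then 7.79, 8.11 and 7.85, and at 8 h 8.10, 7.92 and 7.97. The libraries at 4 and 8 h lay below the controls with both inhibitors. At 8 h of BMH-21 Dkc1 had the largest fall of the 10 genes as deposited, to 34.5% of control (-1.53, SE 0.10, adjusted p 4.86e-28). At 4 h of BMH-21 it stood at 78.2% (-0.36, adjusted p 0.00177), and with CX-5461 at 62.8% at 4 h (-0.67, adjusted p 1.10e-08) and 66.3% at 8 h (-0.59, adjusted p 4.85e-07). Exons of Dkc1 overlap those of Mpp1 on the opposite strand.

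Nhp2 (ENSMUSG00000001056, chr11:51619735-51623714, plus strand, 4 exons), an RNA-binding protein of the particle, had values of 9.17, 9.15 and 8.93 in the control, 9.02, 9.14 and 9.02 at 2 h, 9.10, 8.79 and 8.98 at 4 h and 8.29, 8.34 and 8.31 at 8 h of BMH-21. With CX-5461 it had 9.12, 8.82 and 8.94, then 8.69, 8.88 and 8.71, and at 8 h 8.89, 8.81 and 8.75. Nhp2 overlapped the control until 4 h of BMH-21 and then fell to 58.6% at 8 h (-0.77, SE 0.10, adjusted p 1.58e-11). With CX-5461 it stood at 80.0% at 4 h (-0.32, adjusted p 0.00338; -0.07 and not called with median-ratio factors) and 83.3% at 8 h (-0.26, adjusted p 0.0229). The call at 8 h was lost without control replicate 1 or 2 or CX-5461 replicate 2 or 3 (-0.22 to -0.26). Exons of Nhp2 overlap those of Rmnd5b on the opposite strand.

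Nop10 (ENSMUSG00000027133, chr2:112261926-112263269, plus strand, 2 exons), the smallest protein of the particle, had values of 6.96, 6.88 and 6.71 in the control, 6.81, 6.99 and 6.81 at 2 h, 6.76, 6.57 and 6.65 at 4 h and 6.13, 6.16 and 6.16 at 8 h of BMH-21. With CX-5461 it had 6.85, 6.63 and 6.58, then 6.45, 6.62 and 6.43, and at 8 h 6.82, 6.75 and 6.68. It fell to 61.6% at 8 h of BMH-21 (-0.70, SE 0.11, adjusted p 2.25e-09), with no overlap. At 4 h of CX-5461 it stood at 78.7% (-0.35, adjusted p 0.00254; -0.10 and not called with median-ratio factors). At 8 h of CX-5461 the libraries overlapped the control and the difference of -0.10 was not called (adjusted p 0.445), but it was called lower after centring (-0.32) and with median-ratio factors (-0.22).

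Gar1 (ENSMUSG00000028010, chr3:129824912-129831396, minus strand, 7 exons), the subunit that helps the particle release its substrate, was the most variable of the 10, with an SD of its own of 0.192 against the 0.141 used in its test. Its values were 6.55, 6.46 and 6.94 in the control, 6.84, 6.77 and 7.04 at 2 h, 6.18, 6.55 and 6.31 at 4 h and 5.98, 5.83 and 6.03 at 8 h of BMH-21. With CX-5461 they were 7.04, 6.61 and 6.42, then 6.32, 6.65 and 6.51, and at 8 h 6.62, 6.62 and 6.65. Control replicate 3 stood above the other 2 controls. Gar1 fell to 61.3% at 8 h of BMH-21 (-0.71, SE 0.11, adjusted p 2.15e-08), below every control. Its call at 4 h of BMH-21 (-0.30, adjusted p 0.0158) was lost after centring (-0.15), with median-ratio factors (-0.12), without control replicate 3 (-0.16) and without BMH-21 replicate 1 (-0.22), and it was not called at any time of CX-5461 as deposited.

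**Figure D2:**
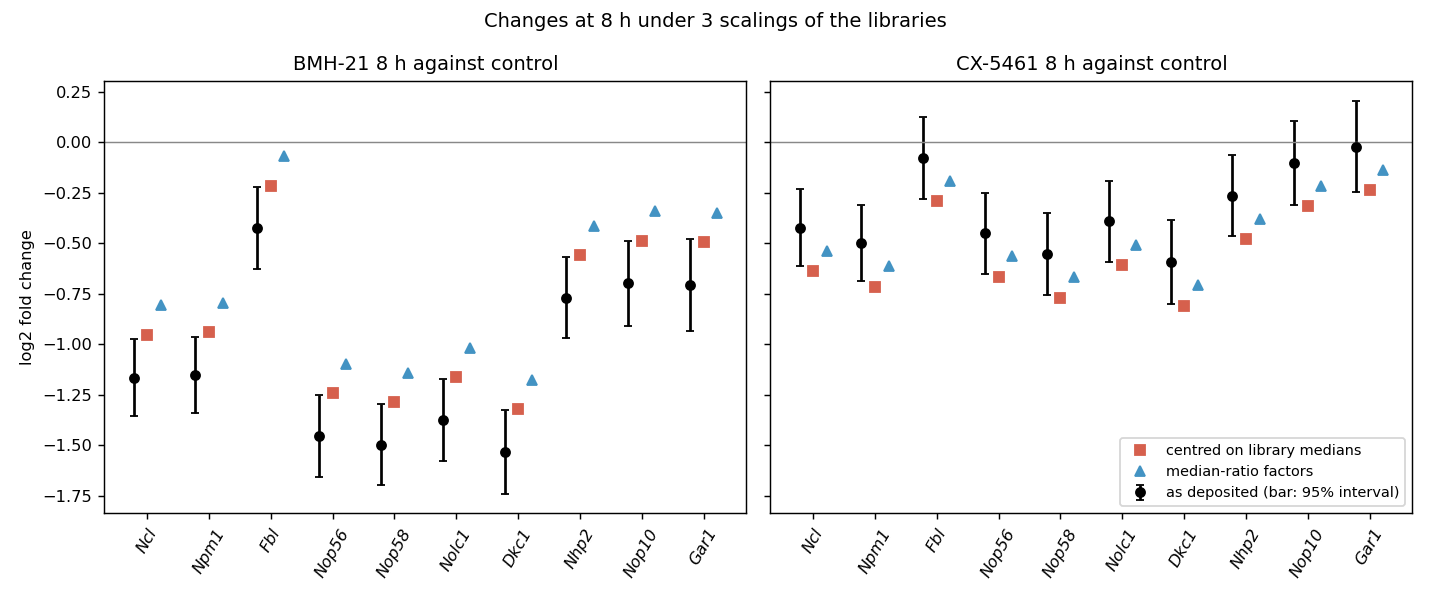
Log2 fold change against control at 8 h (vertical axis) of each gene (horizontal axis) with BMH-21 and with CX-5461; circles are the deposited scale with 95% intervals, squares follow centring on library medians, triangles use median-ratio factors. The falls with BMH-21 shrink by the same amount for every gene under the other scalings and those with CX-5461 grow, and Fbl reaches -0.07 with median-ratio factors at BMH-21.

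The split within each particle was then read from ratios of 2 genes in the same library, which no scaling factor can change. The level of such a ratio also depends on the lengths of the transcripts, so only its difference between groups is given, and the ratios were chosen after the values of the genes had been seen. The log2 ratio of Nop58 to Fbl was 0.35, 0.45 and 0.12 in the control and -0.65, -0.78 and -0.85 at 8 h of BMH-21, so the ratio stood at 47.6% of its control level (difference -1.07, SE 0.11). With CX-5461 at 8 h it was -0.13, -0.17 and -0.21, or 71.8% of control (-0.48, SE 0.10). The ratio of Nop56 to Fbl stood at 49.0% (-1.03, SE 0.12) and 77.1% (-0.37, SE 0.11) at these 2 points. In each of these cases all treated libraries lay below all controls.

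In the box H/ACA particle the ratio of Dkc1 to Nhp2 was -0.55, -0.44 and -0.49 in the control and -1.14, -1.36 and -1.27 at 8 h of BMH-21, or 58.9% of control (-0.76, SE 0.07). With CX-5461 at 8 h it was -0.80, -0.89 and -0.78 (79.6%, -0.33, SE 0.04). The ratio of Dkc1 to Nop10 stood at 56.0% at 8 h of BMH-21 (-0.84, SE 0.08) and 71.1% at 8 h of CX-5461 (-0.49, SE 0.06). The ratio of Nhp2, a small partner, to Nop10, another, stood at 95.2% at 8 h of BMH-21 (-0.07, SE 0.02) and 89.3% at 8 h of CX-5461 (-0.16, SE 0.02). Though small, both differences left all treated libraries below all controls. The ratios with Gar1 were less precise. That of Dkc1 to Gar1 stood at 56.3% (-0.83, SE 0.23) and 67.2% (-0.57, SE 0.23) at these 2 points, below every control. It overlapped the control at 2 h of both inhibitors and at 4 h of BMH-21 (-0.05, SE 0.29). That of Nhp2 to Gar1 stood at 95.6% (-0.07, SE 0.24) and 84.5% (-0.24, SE 0.23) at 8 h. That of Nop10 to Gar1 stood at 100.5% (0.01, SE 0.23) and 94.6% (-0.08, SE 0.22). Both of these overlapped the control at 8 h of each inhibitor. With 3 libraries against 3, an exact two-sided permutation test cannot go below a p of 0.1. Each ratio without overlap reached that value, and 0.193 is the lowest p after adjustment over the 54 ratios tested.

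The 2 scaffold genes also parted from each other early. The log2 ratio of Nop56 to Nop58 was 0.20, 0.15 and 0.14 in the control and -0.03, -0.07 and -0.12 at 2 h of BMH-21 (84.9% of control, -0.24, SE 0.03). It was -0.04, -0.15 and -0.02 at 4 h of BMH-21 and -0.04, -0.10 and -0.10 at 4 h of CX-5461, both below every control. At 8 h it was 0.18, 0.24 and 0.19 with BMH-21, overlapping the control, and 0.28, 0.25 and 0.27 with CX-5461, above every control (0.10, SE 0.02). The ratio was thus lower at 2 and 4 h and at or above the control at 8 h with both inhibitors.

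**Figure D3:**
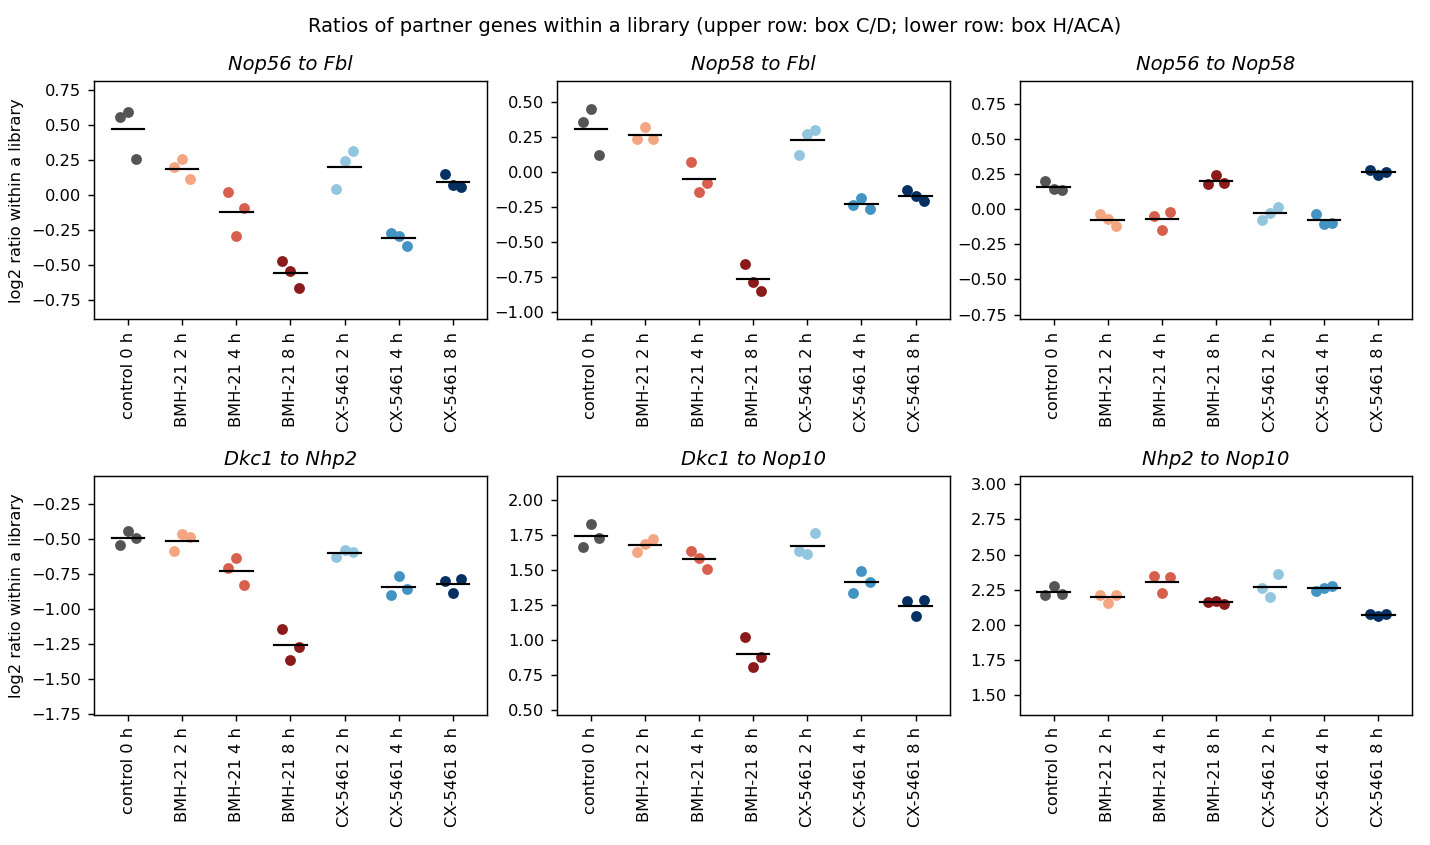
Log2 ratio of 2 partner genes within a library (vertical axes) by group (horizontal axes), box C/D pairs in the upper row and box H/ACA pairs in the lower row; points are libraries and bars are means of 3. At 8 h of BMH-21 the ratios of Nop56 and Nop58 to Fbl and of Dkc1 to its partners are the lowest groups, while the ratio of Nop56 to Nop58 is back at its control level.

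At 8 h of BMH-21 Fbl, Nop10, Gar1 and Nhp2 fell least as deposited. They are the 4 whose longest protein-coding transcript is shortest, at 1042 to 1271 bases. By other lengths they are not the 4 shortest. The coding sequence of Npm1 (876 bases) is shorter than that of Fbl (981). Over all annotated exons Npm1 (2665 bases) is also shorter than Fbl (4209). The longest transcripts of the other 6 run from 1633 bases (Npm1) to 9507 (Nop58). In order of this length their log2 changes were -1.15 (Npm1), -1.45 (Nop56), -1.53 (Dkc1), -1.38 (Nolc1), -1.17 (Ncl) and -1.50 (Nop58). The GC content of these transcripts was 56.7% for Fbl, 57.0% for Gar1, 54.1% for Nhp2 and 46.5% for Nop10, and it ran from 41.0% (Nop58) to 51.6% (Nolc1) in the other 6. The part of length or GC content in the unequal falls was not tested.

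The 2 inhibitors were compared directly at matched dose and time. At 2 h 0 of 10 genes differed, where 3.99% of all genes did, and the differences ran from 0.10 to 0.21, with 95% intervals that reached 0.42. At 4 h 1 of 10, Dkc1, was higher with BMH-21 (9.35% of all genes were higher), at 124.5% of its CX-5461 level (0.32, SE 0.10, adjusted p 0.0218). The Dkc1 call was lost without BMH-21 replicate 1 or without CX-5461 replicate 1 or 3 (0.24 to 0.28), and without CX-5461 replicate 2 the count was 4. Over all genes, leaving out 1 replicate gave 1687 to 2931 called in either direction, beside 2617 with all libraries. At 4 h centring made 7 of 10 higher under BMH-21 (27.4% of all genes), and median-ratio factors 3 of 10 (17.6%).

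At 8 h 10 of 10 genes were lower with BMH-21 than with CX-5461 as deposited, where 67.2% of all genes were lower. The libraries of the 2 inhibitors did not overlap for 10 of 10 genes, as was so for 69.7% of all genes. Nop56 stood at 49.8% of its CX-5461 level (-1.004, SE 0.10, adjusted p 2.85e-16), Nolc1 at 50.5% (-0.98), Nop58 at 52.0% (-0.94) and Dkc1 at 52.1% (-0.94). Ncl stood at 59.8% (-0.74), Npm1 at 63.6% (-0.65), Gar1 at 62.2% (-0.68), Nop10 at 66.1% (-0.60), Nhp2 at 70.4% (-0.51) and Fbl at 78.4% (-0.35, adjusted p 0.00131). The 10 genes had a median difference of -0.71 on the deposited scale, beside -0.48 over all genes tested. Centring reduced the 2 medians to -0.29 and -0.06, and median-ratio factors to -0.24 and -0.01. After centring and with median-ratio factors 7 of 10 were lower in both cases, where 40.6% and 36.4% of all genes were. Nhp2 (-0.08 and -0.03) and Gar1 (-0.26 and -0.21) were then not called, and Fbl turned to 0.08 and 0.12. The scaling-free ratios of the 2 scaffold genes to Fbl and of Dkc1 to its partners were farthest from control at 8 h of BMH-21 among the 6 treated groups. The difference between the inhibitors in these ratios was not tested.

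**Figure D4:**
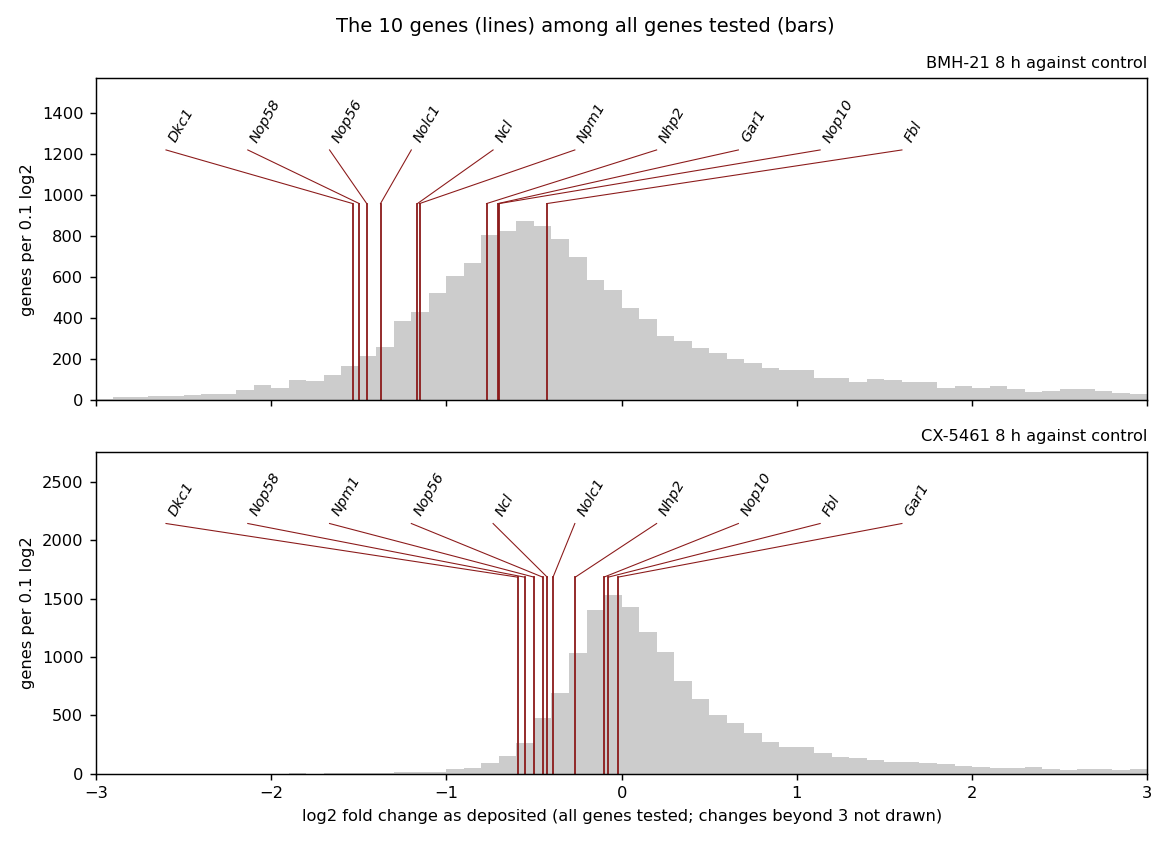
Number of genes per 0.1 log2 (vertical axes) by log2 fold change at 8 h against control on the deposited scale (horizontal axis), for BMH-21 and CX-5461, with a line for each of the 10 genes. With BMH-21 the lines run from -1.53 (Dkc1) to -0.43 (Fbl), all below the median over all genes of -0.40; with CX-5461 they run from -0.59 to -0.02, all below the median over all genes of 0.11.

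Between 4 and 8 h the courses of the 2 inhibitors parted. With BMH-21 10 of 10 genes fell further as deposited (37.8% of all genes fell), from -1.18 for Dkc1 (to 44.2% of its level at 4 h) to -0.37 for Fbl (77.5%). With median-ratio factors 9 of 10 fell, where 32.5% of all genes did. After quantile normalization Npm1 (0.048) and Fbl (0.065) turned above 0 and were not called. With CX-5461 3 of 10 rose as deposited (58.8% of all genes rose): Nop56 to 134.0% of its level at 4 h (0.42, adjusted p 0.000197), Nolc1 to 121.0% (0.27, adjusted p 0.0147) and Nop10 to 118.5% (0.24, adjusted p 0.0362). The rises turn with the scaling. After centring and with median-ratio factors 8 and 7 of 10 genes were lower at 8 than at 4 h of CX-5461, where 32% and 30.9% of all genes were, Nop56 was not called (0.05 and 0.06) and Nolc1 and Nop10 were below 0. Without CX-5461 4 h replicate 1 or 3, or without CX-5461 8 h replicate 1, the deposited count of rises was 1. Over all genes, leaving out 1 replicate gave 7411 to 10238 called in either direction, beside 9338 with all libraries.

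The difference between the 2 courses was tested as an interaction, added after the data had been seen. The change from 4 to 8 h was lower with BMH-21 than with CX-5461 for 10 of 10 genes as deposited, where it was lower for 61.4% of all genes. It was lower for 8 of 10 after centring and for 6 of 10 with median-ratio factors, beside 36.2% and 27.6% of all genes. Dkc1 (-1.26, SE 0.15), Nop56 (-1.23), Nop58 (-1.16) and Nolc1 (-1.12) differed most as deposited. Fbl (-0.39, adjusted p 0.0143) turned to 0.05 and 0.15 under the other scalings. The comparisons with control share their 3 control libraries, so the likeness of the 2 inhibitors at 2 and 4 h is given only as each one's own values.

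Of the genes, 4 carry snoRNAs in their introns, which are released when the host transcript is spliced. The annotation places 13 snoRNAs in Ncl, Nop56, Nop58 and Dkc1, and 7 of them have a row in the table. Only Snord57, in intron 10 of Nop56, passed the filter; the other 6 had at most 40 reads in any library. The 3 sequences below (GRCm38) show what the hosts carry: a box C/D RNA of Nop56, a box C/D RNA of Ncl and a box H/ACA RNA of Ncl, with the letters of box C, box D or the ACA end in capitals where a search found them.
Snord57, chr2:130278016-130278087, plus strand: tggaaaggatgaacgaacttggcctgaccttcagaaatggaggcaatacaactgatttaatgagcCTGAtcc
Snord82, chr1:86356261-86356330, minus strand: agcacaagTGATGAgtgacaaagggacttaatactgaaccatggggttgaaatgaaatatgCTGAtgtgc
Snora75, chr1:86351169-86351301, minus strand: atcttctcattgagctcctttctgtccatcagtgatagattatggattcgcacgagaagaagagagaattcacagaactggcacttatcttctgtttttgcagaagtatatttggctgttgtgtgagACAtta

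Snord57 held 24 to 97 reads per library. Its mean log2 level was 0.66 ± 0.35 (SD, n = 3) in the control, 0.15 ± 0.27 at 2 h, -0.60 ± 0.38 at 4 h and -1.19 ± 0.23 at 8 h of BMH-21. With CX-5461 it was -0.11 ± 0.42, -0.24 ± 0.40 and 0.40 ± 0.20. Snord57 fell at 8 h of BMH-21 (-1.85, SE 0.26, adjusted p 1.27e-10), and at 8 h of CX-5461 its difference of -0.26 was not called (adjusted p 0.415). Mature snoRNAs have no poly(A) tail and these libraries selected poly(A) RNA, so these reads and reads from unspliced or intron-retaining Nop56 transcripts cannot be told apart. The host gene Nop56 itself was lowest at 8 h of BMH-21 among the 7 groups, as Snord57 was.

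Since most of the genes fell together at 8 h of BMH-21, their promoters were searched for short motifs on both strands. RefSeq promoter windows (GRCm38.p6, 250 bases before to 50 bases after the start) matched 8 of the genes; Npm1 and Fbl had no entry. The motifs were chosen after the sequences had been seen. The E-box CACGTG, the letters bound by MYC and its relatives, was in 0 of 8 windows, and 7.15% of 32851 promoters hold it. The GC box GGGCGG was in 5 of 8 (Ncl, Nop56, Nop58, Nhp2 and Nolc1; 35.66% of all promoters), and CCAAT in 4 of 8 (Nop56, Dkc1, Nhp2 and Nop10; 37.41%). The ETS letters CCGGAAGT were in 2 of 8 (Gar1 and Nhp2; 3.89%). The cyclic AMP response element TGACGTCA was in 0 of 8 (1.79%), as was the NRF1 motif (0.97%). GC box and CCAAT letters can overlap longer sites not searched here.

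The 100 bases before the first annotated exon are shown for 2 genes that fell far at 8 h of BMH-21 (Nop56 and Nolc1) and 2 that fell less (Gar1 and Nhp2), to show the motif letters in their place. Capitals mark these letters on either strand. Within the whole windows Nop56 and Nolc1 both hold the GC box, which Nhp2 holds too, and Gar1 and Nhp2 hold the ETS letters, at positions -44 and -23 from the RefSeq start; those of Nhp2 and the GC box of Nop56, at -104, lie outside the bases shown.
Nop56, chr2:130274312-130274411, plus strand: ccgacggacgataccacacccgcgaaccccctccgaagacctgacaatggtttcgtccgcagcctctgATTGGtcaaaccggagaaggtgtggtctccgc
Nolc1, chr19:46075747-46075846, plus strand: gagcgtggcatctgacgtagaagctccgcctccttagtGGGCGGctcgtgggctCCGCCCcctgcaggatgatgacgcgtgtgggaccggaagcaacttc
Gar1, chr3:129831397-129831496, minus strand: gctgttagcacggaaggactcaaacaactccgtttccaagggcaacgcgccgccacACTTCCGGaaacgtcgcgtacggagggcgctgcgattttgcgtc
Nhp2, chr11:51619635-51619734, plus strand: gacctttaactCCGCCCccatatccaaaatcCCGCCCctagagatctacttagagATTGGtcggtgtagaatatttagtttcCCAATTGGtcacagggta
The genes shown do not stand for all 8 windows. Dkc1, which fell most at 8 h of BMH-21, has no GC box in its window. Nop10, which fell less as Gar1 and Nhp2 did, has no ETS letters. A match is a description of the letters only.

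The proteins that build and accompany these particles were mostly lower too at 8 h of BMH-21. The 16 assembly and partner genes were Snu13 (listed as Nhp2l1), Rrp9, Nufip1, Znhit3, Znhit6, Pih1d1, Rpap3, Ruvbl1, Ruvbl2, Naf1, Shq1, Tgs1, Phax, Coil, Smn1 and Tert. Of these, 14 fell and 1 rose at 8 h of BMH-21, with a median of -0.79, where 56.9% of all genes fell and their median was -0.40. At 8 h of CX-5461 7 fell and 1 rose, with a median of -0.20, where 14.3% of all genes fell and their median was 0.11. Ruvbl2 was the gene not called at 8 h of BMH-21 (-0.20, adjusted p 0.0667), and with median-ratio factors it was called higher (0.16, adjusted p 0.000485). After centring and with median-ratio factors, 15 and 13 of the 16 fell at 8 h of CX-5461 (44.7% and 35.3% of all genes). Coil, the scaffold of the Cajal body in which snoRNPs mature, had the lowest value with BMH-21 (-1.59, SE 0.11, adjusted p 4.05e-28) and CX-5461 (-0.51, adjusted p 2.10e-05). Naf1, which holds the place of Gar1 in the immature H/ACA particle, was next with BMH-21 (-1.29, adjusted p 1.99e-20). Rrp9, a protein of the U3 particle, was next with CX-5461 (-0.49, adjusted p 2.01e-05). Ruvbl1, an ATPase of the assembly machinery, had the highest value among the genes that fell, with BMH-21 (-0.55, adjusted p 7.00e-07) and with CX-5461 (-0.27, adjusted p 0.0195).

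The gene that rose was Tert, the catalytic subunit of telomerase, whose RNA is held by the H/ACA proteins. Its log2 level was 3.93 to 4.12 in the control, 4.42 to 4.87 at 8 h of BMH-21 and 4.65 to 4.66 at 8 h of CX-5461, with no overlap. Tert rose to 158.3% of control with BMH-21 (0.66, SE 0.12, adjusted p 2.40e-07) and to 154.8% with CX-5461 (0.63, SE 0.12, adjusted p 2.15e-06). It rose under the other scalings too, by 0.87 and 1.02 at 8 h of BMH-21 and by 0.42 and 0.52 at 8 h of CX-5461. Dkc1, the telomerase-associated pseudouridine synthase, fell in the same libraries.

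Of 10 other nucleolar proteins, 10 fell at 8 h of BMH-21 (median -1.13; 56.9% of all genes fell) and 6 at 8 h of CX-5461 (median -0.32; 14.3% of all genes fell). After centring and with median-ratio factors 10 of 10 fell at 8 h of CX-5461, where 44.7% and 35.3% of all genes did. Nop2, a ribosomal RNA methyltransferase, had the lowest value with BMH-21 (-1.59, SE 0.10, adjusted p 6.40e-30), beside Tcof1, the treacle protein that binds RNA polymerase I and Nolc1 (-1.59, adjusted p 2.74e-29). Gltscr2, a ribosome assembly factor now named Nop53 (-0.50, adjusted p 5.46e-06), and Npm3, a relative of Npm1 (-0.65, adjusted p 2.45e-08), fell least. With CX-5461 Tcof1 was again lowest (-0.59, adjusted p 6.74e-07), followed by Mybbp1a, a nucleolar transcription regulator (-0.43, adjusted p 0.000105). Nop2 (-0.31, adjusted p 0.00788) and Gnl3, the nucleostemin gene (-0.32, adjusted p 0.00658), were the highest of those called. These ranks of Nop2 rest on small gaps, to Tcof1 under BMH-21 (-1.59 for both) and to Gnl3 under CX-5461. The highest value of the list under CX-5461 was -0.09, in a gene not called as deposited. Under either of the other scalings all 10 genes were called lower, so Nop2 was not the highest called gene there. The log2 level of Nop2 was 8.26 to 8.36 in the control, 6.60 to 6.81 at 8 h of BMH-21 and 8.00 to 8.04 at 8 h of CX-5461.

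The genes whose 6 changes against control lay nearest to the median of the 10 were sought among 8056 genes with a mean log2 of at least 4. Serbp1, an mRNA-binding protein, was nearest, with a root mean square difference of 0.03 over the 6 comparisons and changes of -1.18 at 8 h of BMH-21 and -0.43 at 8 h of CX-5461. Mybbp1a (0.03), Aven (0.04), Phb2, a prohibitin (0.04), Eif4a1, the translation initiation helicase (0.04), and Eif4e2, a cap-binding protein (0.04), followed. Among the 10 genes themselves Npm1 (0.05) and Ncl (0.06) lay nearest to their common median, and Fbl (0.37), Gar1 (0.29) and Nop56 (0.29) lay farthest. The 6 comparisons share the control libraries, so this likeness is a description of the same 21 libraries.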

How the data were processed

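The authors deposited 1 table of log2 values for the 21 libraries, normalized with voom per its name. Trim Galore 0.5.0, TopHat2 2.1.1, DESeq2 1.30.1, edgeR 3.32.1, limma 3.46.0, R 4.0.5 and the build mm10 are named per the submitters' processing notes, with no roles; the read counter and its use of strand are not given in the sources used here. The values return whole reads to within 1.7e-08 with an offset of 0.5 reads. Replicates differed beyond sampling noise (chi-square per degree of freedom 2.40 to 23.2) and were kept apart.

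Genes with a log2 value above 0 in at least 3 libraries were fitted in limma 3.58.1 (R 4.3.3) with 1 mean per group over 21 libraries and a variance trend. P-values are two-sided, Benjamini-Hochberg adjusted over 14666 genes, with a threshold of 0.05; intervals are 95%. The same fit, tested on simulated data for BMH-21 at 8 h (14666 genes), recovered 28 of 50 genes put in at -0.5, 46 of 50 at -1, 45 of 50 at -1.5 and 48 of 50 at 1, with 7 false calls among 174. In the simulation few genes were changed, and noise was drawn for each gene alone, with no shift shared by a library. In the data 81.5% of genes were called at this comparison, so these counts do not describe how the fit does there. The unit was as planned, so no count model was used.

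The genes, the lists around them and the rule for named genes (all 10 genes; the 2 highest and 2 lowest called genes of each list at 8 h; the 6 nearest patterns) were chosen with earlier results of these data known. Gene models come from GENCODE M21 and near copies from BLAST 2.17.0. The alternatives were 3 other scalings, 2 filters, an offset of 5 reads, 3 variance models, a replicate block, fits of the compared groups alone, and each replicate left out.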

Additional observations from a re-analysis of the deposited data

Results flagged for a closer look

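The 2 inhibitors' effects on these genes differed by a test of the difference itself in 21 cases. At 4 h Dkc1, alone of the 10 genes, was called higher with BMH-21 than with CX-5461, by 0.32 (log2). Of all genes, 9.35% were called higher there. The Dkc1 call was lost when certain single replicates of either inhibitor were left out. It was also lost without a variance trend or with only the groups compared. At 8 h all 10 genes were lower with BMH-21 as deposited, where 67.2% of all genes were: Ncl by -0.74, Npm1 -0.65, Fbl -0.35, Nop56 -1.004, Nop58 -0.94, Dkc1 -0.94, Nhp2 -0.51, Nop10 -0.60, Gar1 -0.68 and Nolc1 -0.98. The change from 4 to 8 h was also lower with BMH-21 for all 10, where it was for 61.4% of all genes: Ncl by -0.74, Npm1 -0.83, Fbl -0.39, Nop56 -1.23, Nop58 -1.16, Dkc1 -1.26, Nhp2 -0.71, Nop10 -0.75, Gar1 -0.54 and Nolc1 -1.12. The scaling of the libraries is part of these values. The difference at 8 h was called for 7 of the 10 genes under centring and under median-ratio factors, where 40.6% and 36.4% of all genes were lower. The difference in the change from 4 to 8 h was called lower for 8 and 6 of the 10, where 36.2% and 27.6% of all genes were.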

How the results depend on the processing

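The scaling of the libraries set most of the changes in direction, and 64 of the 97 sign changes were between values of which neither passed the test. The number of the 10 genes called moved by over 1.5 times as follows. At 2 h of BMH-21 (0 called) it was 1 after centring, 2 after quantile normalization and 1 with median-ratio factors, and at 4 h of BMH-21 (7) it was 4 with median-ratio factors. At 4 h of CX-5461 (8) it was 5 after quantile normalization and 5 with median-ratio factors. Between the inhibitors it was 1 after centring at 2 h (0). At 4 h (1) it was 7 after centring, 3 after quantile normalization, 3 with median-ratio factors, and 0 without a variance trend or with only the groups compared. At 8 h (10) it was 6 after quantile normalization. For 8 against 4 h of CX-5461 (3, higher) it was 8, 6 and 7 under the 3 scalings, mostly lower, and for the interaction (10) it was 6 with median-ratio factors. Leaving out 1 replicate gave 0 to 1 at 2 h of BMH-21, 0 to 5 at 2 h of CX-5461, 0 to 1 and 0 to 4 between the inhibitors at 2 and 4 h, and 1 to 3 for 8 against 4 h of CX-5461.

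After centring, the log2 difference changed sign for Npm1 0.0089, Dkc1 0.035, Nhp2 0.055 and Nolc1 0.054 at 2 h of BMH-21, and for Fbl 0.090 and Nhp2 0.027 at 4 h. It did so for Ncl 0.064, Fbl 0.062 and Nhp2 0.025 at 2 h of CX-5461 and for Fbl 0.064 and Gar1 0.0033 at 4 h. Between the inhibitors at 8 h Fbl was 0.077, and in the interaction 0.05. For 8 against 4 h of CX-5461 it was Fbl -0.35, Nop58 -0.30, Dkc1 -0.30, Nhp2 -0.32, Nop10 -0.13, Gar1 -0.24 and Nolc1 -0.099.

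With median-ratio factors, the sign changed for Npm1 0.016, Dkc1 0.042, Nhp2 0.063 and Nolc1 0.061 at 2 h of BMH-21 and for Fbl 0.12 and Nhp2 0.060 at 4 h. At 2 h of CX-5461 it did so for Ncl 0.10, Fbl 0.099, Nop58 0.021, Nhp2 0.061, Nop10 0.023 and Nolc1 0.014, and at 4 h for Fbl 0.16 and Gar1 0.095. Between the inhibitors Fbl was -0.032 at 4 h and 0.12 at 8 h, and in the interaction Fbl was 0.15 and Gar1 0.0025. For 8 against 4 h of CX-5461 it was Fbl -0.35, Nop58 -0.29, Dkc1 -0.29, Nhp2 -0.31, Nop10 -0.12, Gar1 -0.23 and Nolc1 -0.091.

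After quantile normalization, the sign changed for Dkc1 0.024, Nhp2 0.049 and Nolc1 0.032 at 2 h, Fbl 0.22, Nhp2 0.16 and Nop10 0.041 at 4 h and Fbl 0.29 at 8 h of BMH-21. At 2 h of CX-5461 it did so for Ncl 0.079, Fbl 0.10, Nop58 0.0085, Nhp2 0.052, Nop10 0.020 and Nolc1 0.0039, at 4 h for Fbl 0.33, Nhp2 0.099 and Gar1 0.16, and at 8 h for Fbl 0.16. Between the inhibitors it was Ncl -0.033, Npm1 0 and Nhp2 -0.0034 at 2 h, Npm1 0 and Fbl -0.10 at 4 h, and Npm1 0.14 and Fbl 0.13 at 8 h. For 8 against 4 h it was Npm1 0.048 and Fbl 0.065 with BMH-21, and Fbl -0.17, Nop58 -0.099, Dkc1 -0.15, Nhp2 -0.14, Nop10 -0.048 and Gar1 -0.17 with CX-5461. In the interaction it was Npm1 0.14 and Fbl 0.24. The ratio of Nhp2 to Nop10 turned to 0.20 at 8 h of BMH-21 and 0.025 at 8 h of CX-5461. Equal values at the top of the range follow from this method's construction for Npm1; the cause of the other changes was not tested.

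Leaving out 1 replicate spanned 0 for values near it: at 2 h of BMH-21 Nhp2 -0.098 to 0.021, Dkc1 -0.12 to 0.019, Nop58 -0.021 to 0.11, Nop10 -0.051 to 0.074 and Nolc1 -0.083 to 0.043, and for Gar1 -0.13 to 0.18 at 2 h and -0.12 to 0.12 at 8 h of CX-5461. Between the inhibitors at 4 h it was Ncl -0.085 to 0.089 and Fbl -0.031 to 0.11, and for 8 against 4 h of CX-5461 Fbl -0.048 to 0.090 and Npm1 -0.11 to 0.042.

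Over all genes tested, the count called at 2 h of BMH-21 (2891) was 5285 after centring, 4634 after quantile normalization and 5243 with median-ratio factors. Between the inhibitors it was 2261, 1847 and 2208 at 2 h (585), and 6719, 6139 and 6116 at 4 h (2617). Leaving out 1 replicate gave 2370 to 5592 at 2 h of CX-5461 (4096), and 361 to 653 and 1687 to 2931 between the inhibitors at 2 and 4 h.

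The replicate numbers did not pair the samples: same-numbered libraries correlated at -0.251 to 0.093 in their deviations, and 4 of 21 correlated best with their own number. With the replicate number as a block, 0 of 120 calls changed, and the number of the 10 genes called stayed at 7 at 4 h and 10 at 8 h of BMH-21.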
